A study of Cavia porcellus with 35 samples.

Results

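The glucocorticoid receptor, the mineralocorticoid receptor and the proteins that carry, fold, activate or silence them were followed as mRNA in the medial prefrontal cortex (mPFC) of juvenile guinea pigs. The group was set by a list of 9 gene symbols: NR3C1, NR3C2, HSD11B1, FKBP4, FKBP5, PTGES3, NCOA1, NCOA2 and NCOR1. Of these, 8 matched a gene in all 4 count tables of the study, among 10949 gene symbols common to the tables. HSD11B1, which encodes an enzyme that regenerates active glucocorticoid from its inactive form, was not analysed here. All 8 genes passed the filter on low counts in every table.

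Glucocorticoids act through NR3C1, the glucocorticoid receptor, and NR3C2, the mineralocorticoid receptor, which bind the same hormone with different affinities. The unbound receptor is held in a chaperone complex. FKBP4 and FKBP5 are immunophilins that replace each other on it, with FKBP4 linked to transport into the nucleus and FKBP5, itself induced by glucocorticoids, to lower hormone binding. PTGES3 is the co-chaperone p23. On chromatin, NCOA1 and NCOA2 are coactivators of the steroid receptors, and NCOR1 is a corepressor that recruits histone deacetylases. In the prefrontal cortex both receptors take part in feedback on the stress axis.

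RNA of 35 guinea pigs (Cavia porcellus) killed on postnatal day 40 was sequenced, with 1 library per animal. The first generation (F1) were offspring of mothers given several courses of the synthetic glucocorticoid (sGC) betamethasone, or saline, in late pregnancy. The comparison was made in 4 F1 control and 4 F1 sGC females, in 5 F1 control and 6 F1 sGC males, and in 4 control and 4 sGC females each of the F2 and F3 generations that followed. The F2 and F3 animals descended through F1 and F2 males mated with females from outside the experiment. The labels name no strain or genotype, and libraries were chosen by availability and quality of RNA. The question was whether the response to antenatal sGC differs by sex and whether it is found in later generations.

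The tissue was a punch of mPFC, and levels in a punch cannot tell fewer cells of a type from less RNA per cell. The labels conflict, since the source is given as prefrontal cortex but the extraction text names the paraventricular nucleus. The summed level of 3 or 4 paraventricular markers was 6.58 to 19.3 CPM (reads scaled to a common library size) in all animals, while that of 4 excitatory cortical neuron markers was 1722 to 6000 CPM, with TRH, OTP and TBR1 not analysed. Library totals were 12819964 to 19551079 counts in females and 25697953 to 31763585 in males. Striatal neuron markers summed to 539.7 to 2577 CPM in F1 control females and 214.3 to 582.6 CPM in F1 sGC females, where 4 of the 7 fell and 16.5% of all genes were called. In F3 females the sums were 287.2 to 907.3 CPM in controls and 180.7 to 432.5 CPM in sGC animals. There 0 of 7 were called, against 1.34% of all genes. At an unadjusted p under 0.05 in edgeR there were 4 of 7, against 17.3% of all genes, and the median log2 fold change was -0.74. For the 5 markers listed in F2 females the sums were 143.2 to 191.2 and 124.5 to 229.1 CPM. There 1 of 4 tested rose, against 0.278% of all genes called. For 6 markers in F1 males the sums were 97.4 to 140.1 and 116.4 to 145.0 CPM, with 0 called, against 9.22% of all genes.

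No member passed the test of sGC against control in any of the 4 tables. The quasi-likelihood test of edgeR, adjusted over all genes for the false discovery rate (FDR), called 0 of 8 members in F1 females, where 16.5% of all genes were called at an FDR under 0.05. It called 0 of 8 in F2 females, against 0.278% of all genes, 0 of 8 in F3 females, against 1.34%, and 0 of 8 in F1 males, against 9.22%. At an unadjusted p under 0.05 the counts were 0 in F1 females, 1 in F2 females (NCOR1), 0 in F3 females and 2 in F1 males (NCOR1 and NCOA1). The shares of all genes at that threshold were 34.2%, 16.1%, 17.3% and 25.2% in the same order. DESeq2 called 1 of 8 members, NCOR1, in F1 males, where it called 1590 of the 11524 genes tested. It called 0 in F1, F2 and F3 females, against 2423 of 11268, 473 of 11132 and 632 of 11420 genes. The likelihood ratio test of edgeR called 0 members in all 4 tables. Of all genes it called 2100, 534 and 616 in F1, F2 and F3 females and 1410 in F1 males. The median log2 fold change of the members was 0.03 in F1 females, -0.10 in F2 females, -0.02 in F3 females and -0.03 in F1 males, against -0.03, 0.01, -0.01 and 0.00 over all genes. The fitted value was negative for 3 of 8 members in F1 females, 8 of 8 in F2 females, 5 of 8 in F3 females and 6 of 8 in F1 males. These members share their libraries, so their signs do not count as separate results.

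**Figure D1:**
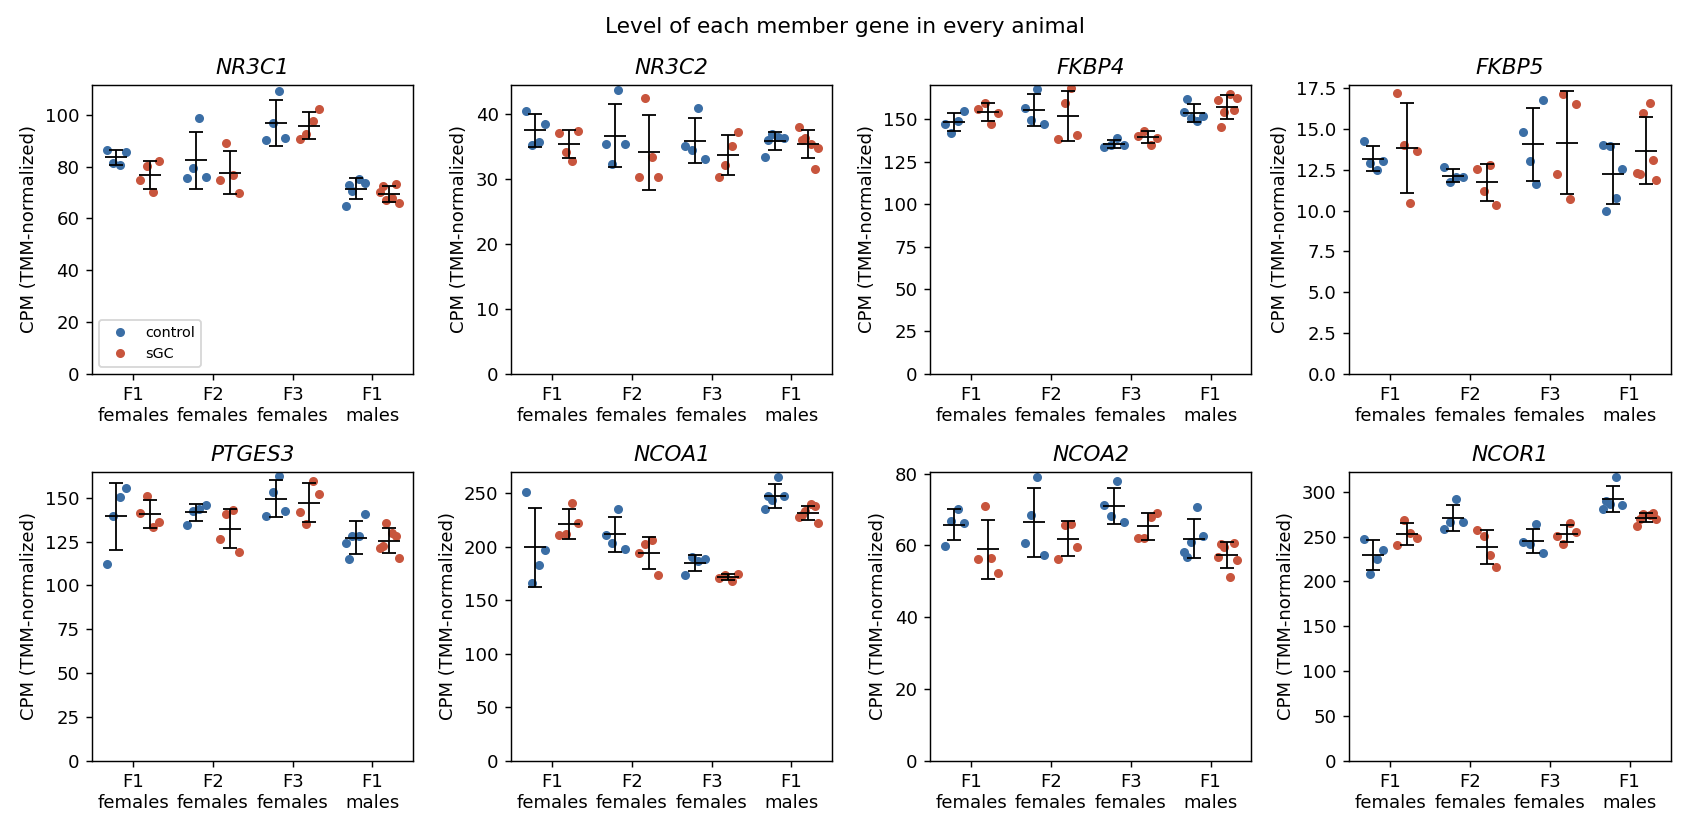
Level of each of the 8 member genes in CPM after TMM normalization within each table (vertical axis, linear, starting at 0), in control (blue) and sGC (red) animals of the 4 tables (horizontal axis). Points are animals, and black bars give the mean with its SD. Control and sGC points overlap in nearly every panel; NCOR1 in F2 females and F1 males does not.

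The glucocorticoid receptor, NR3C1, was measured at 65 to 109 CPM per animal. In F1 females the 4 control animals had 86.6, 81.4, 80.7 and 85.7 CPM, and the 4 sGC animals 74.8, 80.3, 70.3 and 82.0 CPM. Of the sGC animals, 3 lay below every control and the other fell inside the control range. The mean was 83.6 ± 2.97 (SD, n = 4) in controls and 76.9 ± 5.32 (SD, n = 4) in the sGC group, for a log2 fold change of -0.12 with a 95% interval of -0.26 to 0.02 and an FDR of 0.199 by edgeR.

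In F2 females NR3C1 was at 75.5, 79.5, 98.9 and 76.1 CPM in controls and 75.0, 89.1, 76.9 and 69.8 CPM in sGC animals. The groups overlapped, with 1 control well above the rest. The log2 fold change of -0.09 (FDR 0.730 by edgeR) became 0.01 without that control, replicate 3. In F3 females the values were 90.1, 97.0, 109 and 91.2 CPM in controls and 90.5, 92.6, 97.8 and 102 CPM in the sGC group. The log2 fold change was -0.02 (FDR 0.929 by edgeR), which became 0.05 without control replicate 3, the animal with 109 CPM. In F1 males the controls had 64.9, 70.7, 75.4, 73.6 and 73.0 CPM, and the 6 sGC animals ranged from 65.8 through a median of 69.2 to 73.4 CPM. The male groups overlapped almost wholly, with a log2 fold change of -0.04 (FDR 0.647 by edgeR). Over the 4 tables the 95% intervals of NR3C1 ran from a 19.2% lower to a 10.2% higher level in sGC animals.

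The mineralocorticoid receptor, NR3C2, was at 30 to 44 CPM. The F1 control females had 40.5, 35.2, 35.6 and 38.4 CPM and the F1 sGC females 37.0, 34.2, 32.8 and 37.4 CPM. In F2 females the controls had 35.3, 32.2, 43.7 and 35.4 CPM and the sGC animals 30.3, 42.4, 33.4 and 30.2 CPM. Each of these groups had both low and high animals, and the groups overlapped in both generations. In F3 females NR3C2 was at 35.01, 34.4, 40.9 and 33.1 CPM in controls and at 30.2, 32.2, 35.04 and 37.2 CPM in sGC animals. In F1 males the controls had 33.3, 36.9, 36.4, 36.3 and 35.9 CPM, and the sGC animals ranged from 31.5 through a median of 35.7 to 38.0 CPM. These groups overlapped as well. The log2 fold changes were -0.08 in F1 females, -0.11 in F2 females, -0.09 in F3 females and -0.02 in F1 males, with FDR values of 0.435 to 0.866 by edgeR. The F2 value ran from -0.23 without sGC replicate 2 to -0.01 without control replicate 3, and the F3 value from -0.14 without sGC replicate 4 to -0.02 without control replicate 3. The F1 female value was -0.02 without control replicate 1, and the male value turned to 0.01 without sGC replicate 6.

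The ratio of the 2 receptors within a library does not depend on how libraries are scaled. The log2 ratio of NR3C2 to NR3C1 counts differed between sGC and control by 0.04 in F1 females, -0.03 in F2 females, -0.08 in F3 females and 0.02 in F1 males. None of these passed a two-sided exact permutation test over animals, with p = 0.486, 0.686, 0.143 and 0.771. All were 1 after adjustment over the 8 ratio tests made. The smallest p this exact permutation test allows is 0.0286 for 4 against 4 animals and 0.00433 for 5 against 6.

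Across animals the 2 receptor mRNAs varied together. After each table's mean was removed from log2(CPM + 0.5), NR3C1 and NR3C2 had a Pearson r of 0.776 and a Spearman rho of 0.685 over 35 animals. With the mean of each treatment within a table removed, r was 0.769, and without the 2 animals farthest from the NR3C1 median r was 0.677. Of 10724 other genes, whose median r with NR3C1 was 0.01, NR3C2 ranked second, behind ZBTB33 (r = 0.848) and before ATF7IP (r = 0.762). The genes most like NR3C2 were NR3C1, ZBTB33 (r = 0.761) and DNAJB4 (r = 0.718). The relation was not the same in each table: r was 0.741 in F1 females, 0.901 in F2 females, 0.878 in F3 females and 0.164 in F1 males. Without the 2 farthest animals it was 0.935, 0.450, 0.505 and -0.230, on 6 animals in each female table and 9 males. The points share library depth and punch content, and since these genes were ranked as the most alike, r is a description and was given no p-value.

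**Figure D2:**
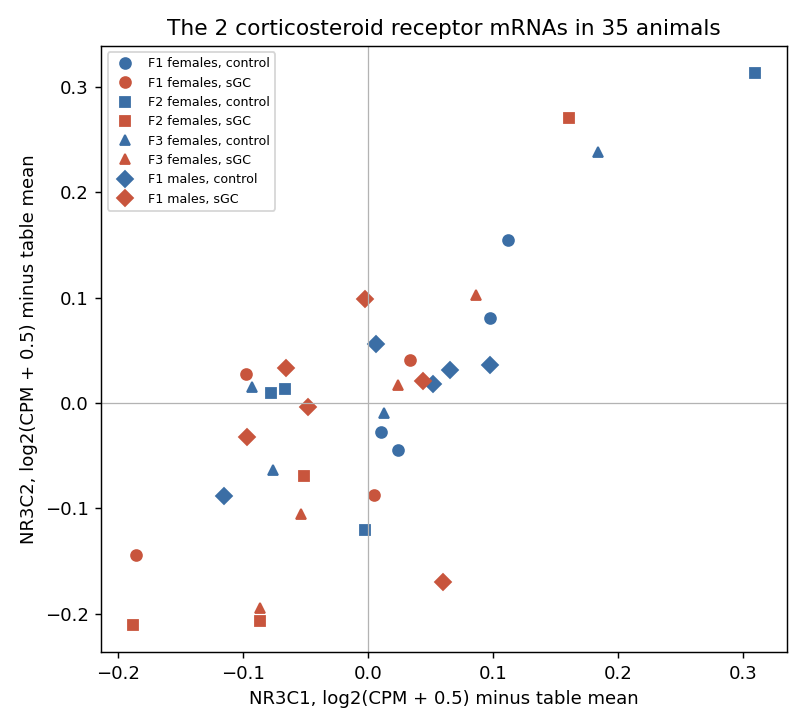
NR3C1 (horizontal) and NR3C2 (vertical) in 35 animals, each as log2(CPM + 0.5) minus the mean of its table; colour gives treatment and shape gives table. Points spread along the rising diagonal (r = 0.776), while those of F1 males scatter without a clear slope (r = 0.164).

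Among the chaperone partners, FKBP5 had the fewest reads and the largest relative spread, with 137 to 510 reads per animal and a within-group coefficient of variation of 14.8%, against 4.85% to 9.48% for the other 7. Counting error alone gives 6.44% at its mean count. In F1 males, the table with the largest FKBP5 difference, the controls had 14.0, 13.9, 10.7, 12.5 and 9.97 CPM and the sGC animals ranged from 11.9 through a median of 12.7 to 16.6 CPM. The groups overlapped, and the log2 fold change of 0.16 had a 95% interval of -0.09 to 0.41 (FDR 0.441 by edgeR). In the female tables the log2 fold changes were 0.07, -0.05 and 0.01 from F1 to F3, with FDR values of 0.754 to 0.984 by edgeR. The genes most like FKBP5 over 35 animals were FAM13A (r = 0.605), USO1 (r = 0.585) and FSTL5 (r = 0.574), lower than the best matches of either receptor.

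FKBP4 was the steadiest member, at 134 to 169 CPM and with a coefficient of variation of 4.85%. Its log2 fold changes were 0.05, -0.03, 0.04 and 0.03 in F1, F2 and F3 females and F1 males, and the 95% intervals together spanned a 13.1% lower to a 12.2% higher level. PTGES3 was at 112 to 162 CPM, with log2 fold changes of 0.01, -0.10, -0.02 and -0.02 in the same order and a lowest FDR of 0.521 by edgeR. Control and sGC animals overlapped in all 4 tables for both genes. The log2 ratio of FKBP5 to FKBP4 differed by -0.01, -0.02, -0.04 and 0.13 in the same order, with p = 1, 0.886, 0.8 and 0.372 by the exact permutation test.

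Of the coactivators, NCOA1 was the member most affected by a single animal. The F1 control females had 251, 166, 183 and 197 CPM and the F1 sGC females 211, 211, 241 and 222 CPM. Thus 3 controls lay below every sGC animal and 1, replicate 1, lay above all of them. With all animals the log2 fold change was 0.15 with a 95% interval of -0.12 to 0.42 (FDR 0.392 by edgeR). Without control replicate 1 it was 0.30 and passed the test (FDR 0.0319 by edgeR). Without control replicate 2 it was 0.07, and it passed in only 1 of the 8 fits that left out 1 animal. Control replicate 1 also had an excitatory neuron marker sum of 2963 CPM, against 1722 to 1850 CPM in the other 3 controls and 2942 to 6000 CPM in the sGC females. Its striatal neuron marker sum was the highest of the controls, at 2577 CPM against 539.7 to 2421 CPM. Its oligodendrocyte marker sum was the lowest of the controls, at 4113 CPM against 7032 to 14000 CPM. The part of these markers in the NCOA1 difference was not tested.

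In F2 females NCOA1 was at 211, 203, 235 and 198 CPM in controls and 194, 202, 207 and 173 CPM in sGC animals, and in F3 females at 173, 190.4, 186 and 188 CPM and 171, 174, 168 and 174 CPM. The sGC animals were on the low side with some overlap, and the log2 fold changes were -0.12 (FDR 0.454 by edgeR) and -0.10 (FDR 0.298 by edgeR). In F1 males the controls had 235, 244, 265, 247 and 247 CPM and the sGC animals ranged from 222 through a median of 231 to 239 CPM. Only the lowest control fell within the sGC range. The log2 fold change of -0.09 had a 95% interval of -0.18 to -0.01 and an unadjusted p of 0.0262 in edgeR, but an FDR of 0.137.

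NCOA2 was at 51 to 79 CPM, and its fitted value was negative in all 4 tables. The log2 fold changes were -0.16, -0.10, -0.12 and -0.11 in F1, F2 and F3 females and F1 males, with FDR values of 0.282 to 0.658 by edgeR. The sign held under every alternative tried, including leaving out each animal in turn, but the F2 value was -0.01 (FDR 0.983 by edgeR) without control replicate 3, and the F1 male value was -0.05 without control replicate 3. The groups overlapped in every table, and the value in F1 females was -0.26 and passed the test (FDR 0.0452 by edgeR) only without sGC replicate 2, the one sGC animal above the highest control (70.9 against 70.2 CPM).

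The corepressor NCOR1 had the lowest p-value of the 8 members in F1 females, F2 females and F1 males. In F2 females the controls had 259, 266, 292 and 267 CPM and the sGC animals 258, 251, 229 and 216 CPM. Every sGC animal lay below every control, the nearest pair being 259 and 258 CPM. The mean was 271 ± 14.3 (SD, n = 4) in controls and 239 ± 19.3 (SD, n = 4) after sGC, for a log2 fold change of -0.18 with a 95% interval of -0.34 to -0.03 (unadjusted p = 0.0250, FDR 0.240 by edgeR). In F1 males the controls had 280.2, 286, 317, 286 and 290 CPM and the 6 sGC animals ranged from 262 through a median of 272 to 277 CPM. Again no animal of one group reached the other. The means were 292 ± 14.5 (SD, n = 5) and 271 ± 5.28 (SD, n = 6), a log2 fold change of -0.11 with a 95% interval of -0.19 to -0.02 (unadjusted p = 0.0149, FDR 0.0974 by edgeR).

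In F1 females NCOR1 was on the other side. The controls had 248, 208, 225 and 235 CPM and the sGC animals 240.3, 269, 254 and 248 CPM. All but 1 control lay below every sGC animal. The log2 fold change was 0.14 with a 95% interval of 0.00 to 0.29, the lower bound being just below 0 (unadjusted p = 0.0554, FDR 0.155 by edgeR). In F3 females the controls had 244, 242, 264 and 232 CPM and the sGC animals 251, 242, 266 and 256 CPM, and the groups overlapped (log2 fold change 0.05, FDR 0.720 by edgeR). NCOR1 was thus the one member whose groups did not overlap, in 1 of 8 members in F2 females and 1 of 8 in F1 males. The share of all genes without overlap was 8.09% in F2 females and 6.26% in F1 males. In F1 and F3 females 0 of 8 members had no overlap, against 23.2% and 10.3% of all genes.

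**Figure D3:**
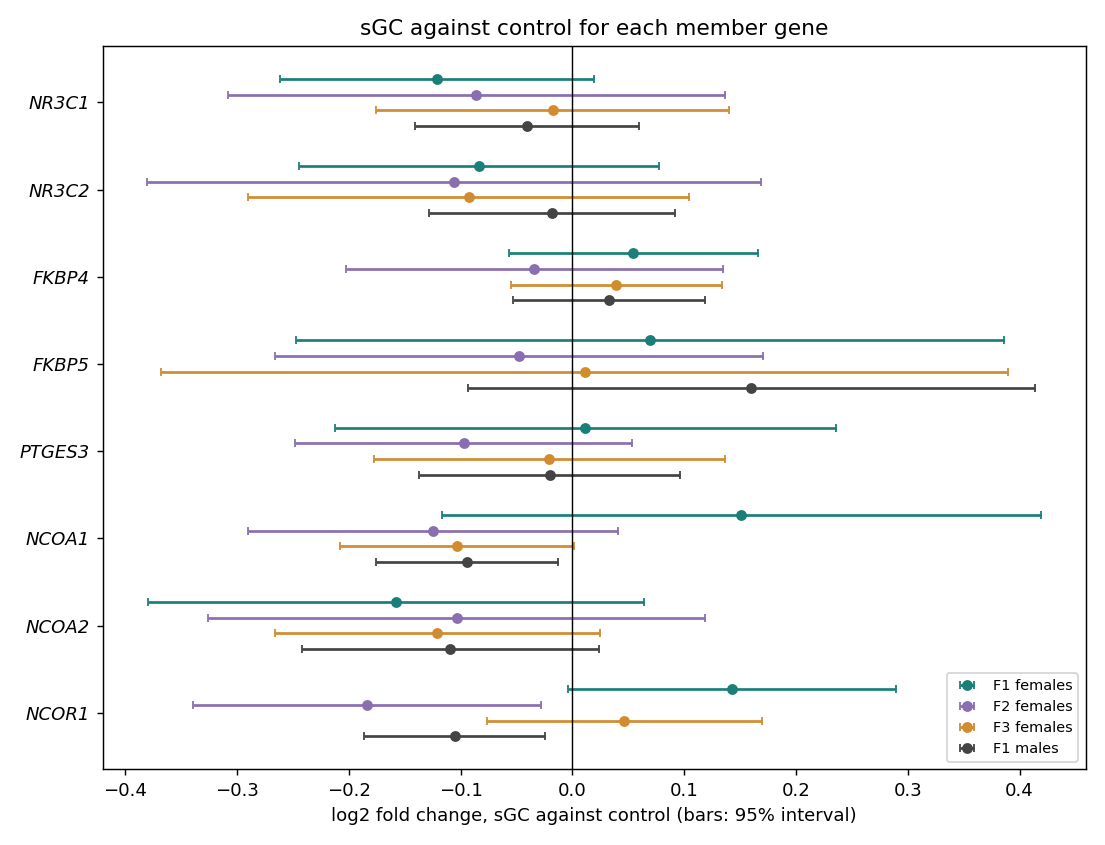
Log2 fold change of sGC against control (horizontal axis) for the 8 member genes (vertical axis) in each of the 4 tables (colours), with 95% intervals from the edgeR fit. NR3C1, NR3C2 and NCOA2 lie left of 0 in all tables, while NCOR1 is at 0.14 in F1 females and at -0.18 and -0.11 in F2 females and F1 males.

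Whether the response to sGC differed between tables was tested as an interaction. Between F1 females and F1 males, 1 of 8 members passed, NCOR1, against 31.7% of all genes. The male response minus the female response was -0.25 on the log2 scale (SE 0.07, 95% interval -0.40 to -0.11, FDR 0.0111 by edgeR). It passed in all 19 fits that left out 1 animal, and with total-count scaling it was -0.17 (FDR 0.0649 by edgeR). Between F1 and F2 females, NCOR1 again was the 1 of 8 members that passed, against 13.8% of all genes, with -0.33 (SE 0.10, 95% interval -0.54 to -0.12, FDR 0.0361 by edgeR). With total-count scaling it was -0.26 (FDR 0.0769 by edgeR). The call was lost in 9 of the 16 fits that left out 1 animal, those without F1 control replicate 2 or 3, F1 sGC replicate 2 or 3, F2 control replicate 2, 3 or 4, or F2 sGC replicate 3 or 4. The value stayed between -0.38 and -0.29 over all 16, with FDR values of 0.0160 to 0.0753 by edgeR.

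Both interactions rest on the same F1 females, so they are not independent. Between F1 and F3 females 0 of 8 members passed, against 0.0981% of all genes. There 0 members had an unadjusted p under 0.05 in edgeR, against 15.8% of all genes. Between F2 and F3 females 0 of 8 passed, against 0.018% of all genes. NCOR1 alone had an unadjusted p under 0.05 (0.23, FDR 0.370 by edgeR), against 11.5% of all genes. DESeq2 called 0 members in both of these, against 201 of 11212 and 126 of 11140 genes. For NCOA1 the interaction between F1 females and F1 males was -0.25 (FDR 0.109 by edgeR). Without F1 female control replicate 1 it was -0.39 and passed (FDR 0.00099 by edgeR), as did its interactions with F2 females (-0.42, FDR 0.0186) and F3 females (-0.40, FDR 0.0440). Without F1 female control replicate 2 these interactions were -0.17, -0.21 and -0.20 in the same order. Each passed in only 1 of the fits that left out 1 animal. For the other 6 members, the lowest interaction FDR was 0.477 between the sexes and 0.521, 0.684 and 0.798 among the female generations, by edgeR. Sex and generation cannot be told apart from whatever else separated the 4 tables, such as the greater depth of the male libraries.

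Of the oligodendrocyte markers, 5 of 5 rose in F1 males. The summed level of 5 of the 7 listed markers, with MBP and MOBP not analysed, was 2866 to 4433 CPM in F2 control females and 4297 to 10127 CPM in F2 sGC females. In F1 males it was 3136 to 5997 CPM in controls and 6734 to 11451 CPM in sGC animals. In F1 females it was 4113 to 14000 CPM in controls and 3251 to 6602 CPM in sGC animals. In F3 females, where 4 markers were measured, it was 1932 to 5129 CPM in controls and 3384 to 4911 CPM in sGC animals. The sGC mean of the sum lay on the other side of the control mean from that of NCOR1 in F1 and F2 females and F1 males, and on the same side in F3 females. Over 4 excitatory neuron markers, with TBR1 not analysed, the mean sums of control and sGC animals were 2077 and 3972 CPM in F1 females. They were 3720 and 3504 CPM in F2 females, 1933 and 2498 CPM in F3 females, and 3886 and 3348 CPM in F1 males. Here the sGC mean lay on the same side of the control mean as that of NCOR1 in all 4 tables. By edgeR, 0 of these 4 markers were called in any table. Neuron markers summed to 4771 to 5694 CPM in F1 control and 6704 to 8595 CPM in F1 sGC females, to 5252 to 6754 and 5546 to 7764 CPM in F2, to 4397 to 6081 and 7174 to 7888 CPM in F3, and to 5698 to 7965 and 6500 to 7828 CPM in F1 males. By edgeR, 0 of 5 oligodendrocyte markers were called in F1 and in F2 females, with 2 and 5 at an unadjusted p under 0.05. The shares of all genes at that threshold were 34.2% and 16.1%. For neurons, 3 of 5 markers rose in F1 and in F3 females. In F2 females and F1 males 0 of 5 neuron markers were called. The shares of all genes called were 16.5%, 0.278% and 1.34% in F1, F2 and F3 females and 9.22% in F1 males. The part of any of these cell types in the NCOR1 values was not tested.

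NCOR1 and NCOA1 varied together over the 35 animals (r = 0.662, rho = 0.535), as did NR3C1 and NCOA2 (r = 0.635, rho = 0.578), after table means were removed. FKBP5 stood apart, with r between -0.23 and 0.22 with each of the other 7 members. These values are given without a p-value, since the libraries share depth and punch content. Single animals carried several members at once: control replicate 3 had the highest level of 6 of 8 members among the F2 controls and likewise of 6 of 8 among the F3 controls. F2 sGC replicate 4 had the lowest level of 6 of 8 members in its group.

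The order of the 8 groups differed by gene and neighbours in it were mostly within each other's spread. NR3C1 was highest in F3 control females (96.9 ± 8.80 CPM, SD, n = 4) and F3 sGC females (95.8 ± 5.23, SD, n = 4), and lowest in F1 sGC males (69.6 ± 3.04, SD, n = 6). Of its 7 neighbouring pairs, 2 differed by more than the larger SD, and none did when all 35 libraries were normalized together, although the order stayed the same. NR3C2 ranged from 33.7 ± 3.10 CPM (SD, n = 4) in F3 sGC females to 37.4 ± 2.50 CPM (SD, n = 4) in F1 control females, with no neighbouring pair beyond the larger SD. With all 35 libraries normalized together it ran from 31.5 to 39.3 CPM in the same 2 groups. Then 4 of the 8 groups kept their rank, and again no neighbouring pair was beyond the larger SD. NCOA1 ran from 172 ± 2.89 CPM (SD, n = 4) in F3 sGC females to 247 ± 11.0 CPM (SD, n = 5) in F1 control males, and FKBP4 from 136 ± 2.27 CPM (SD, n = 4) in F3 control females to 157 ± 7.13 CPM (SD, n = 6) in F1 sGC males. Both kept their order under the joint normalization. For NCOR1 the lowest group changed from F1 control to F3 control females, and for FKBP5, NCOA2 and PTGES3 the highest group changed. These levels were set across tables and were not tested.

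Called genes of the surrounding pathway were found in both F1 tables, where 16.5% (females) and 9.22% (males) of all genes were called. None was found in F2 or F3 females, where 0.278% and 1.34% were called. Of 13 other chaperones of the receptor complex, 2 rose and 0 fell in F1 sGC females, a share close to the 16.5% of all genes. HSP90AA1, the inducible cytosolic HSP90, rose from 2039.8 ± 51.5 to 2454 ± 79.7 CPM (SD, n = 4 each; log2 fold change 0.27, FDR 0.0130 by edgeR). PPP5C, a phosphatase that binds the HSP90 complex, had a log2 fold change of 0.22 (FDR 0.0186 by edgeR). The median over the 13 was 0.10, against -0.03 over all genes. In F1 males 0 of 14 passed, with 1 at an unadjusted p under 0.05 in edgeR, against 25.2% of all genes.

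Among 20 other coregulators in F1 females, 1 rose and 2 fell, again close to the 16.5% of all genes. NRIP1, a ligand-dependent corepressor, rose by 0.32 on the log2 scale (FDR 0.0117 by edgeR). The histone deacetylase HDAC1, found in corepressor complexes, fell from 37.6 ± 4.30 to 26.5 ± 3.48 CPM (SD, n = 4 each; log2 fold change -0.50, FDR 0.0214 by edgeR), and the acetyltransferase KAT2B fell by 0.73 on the log2 scale (FDR 0.0437 by edgeR). In F1 males HDAC1 was the 1 of 19 that passed, against 9.22% of all genes, and it rose from 25.0 ± 1.77 (SD, n = 5) to 30.2 ± 1.27 CPM (SD, n = 6; log2 fold change 0.28, FDR 0.00824 by edgeR). HDAC1 thus changed in opposite directions in the 2 sexes, and the male response minus the female response was 0.77 on the log2 scale (SE 0.12, FDR 0.000132 by edgeR). As HDAC1 was picked for its calls in these tables, that value is not separate support, and 31.7% of all genes passed the interaction. Cell type markers moved beside these genes. In F1 females, against 16.5% of all genes called, 3 of 5 neuron markers rose. Their summed level was 4771 to 5694 CPM in controls and 6704 to 8595 CPM in sGC animals. There 4 of 7 striatal neuron, 2 of 6 interneuron, 3 of 6 astrocyte and 3 of 4 tested microglia markers fell. So did 1 of 6 endothelium and 1 of 4 choroid plexus and meninges markers. In F1 males, against 9.22%, 5 of 5 oligodendrocyte and 2 of 4 oligodendrocyte precursor markers rose, and 2 of 6 interneuron markers fell. The part of these cell types in the changes of HSP90AA1, HDAC1 and the other genes named was not tested.

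For hormone handling, 4 of the 8 listed genes of corticosteroid metabolism and transport were measured in females. In F1 females 1 of 4 passed, against 16.5% of all genes. This was SRD5A1, a steroid 5-alpha-reductase, which rose in sGC animals (log2 fold change 0.33, FDR 0.0309 by edgeR). In F1 males 0 of 5 passed, against 9.22% of all genes. Of 2 other steroid receptors tested, 1 passed in F1 males, against 9.22% of all genes, and 0 passed in the female tables. ESR2, an oestrogen receptor, fell in F1 males from 5.58 ± 1.09 (SD, n = 5) to 3.90 ± 0.54 CPM (SD, n = 6; log2 fold change -0.52, FDR 0.0378 by edgeR). Its log2 fold change was -0.93 in F1 females (FDR 0.0870 by edgeR), -0.29 in F2 females (FDR 0.476) and -1.18 in F3 females (FDR 0.0781), and the difference between the F1 sexes did not pass (0.41, FDR 0.390).

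Of the classical glucocorticoid target genes, a share close to the background was called in F1 females. There 0 of 12 rose and 2 fell, against 16.5% of all genes. The genes that fell were TIPARP (log2 fold change -0.55, FDR 0.00854 by edgeR) and DDIT4, an inhibitor of mTOR signalling (-0.58, FDR 0.0239 by edgeR). In F1 males 2 of 13 rose and 0 fell, against 9.22% of all genes. The genes that rose were PDK4, a kinase that restrains glucose oxidation (0.82, FDR 0.00285 by edgeR), and the cell cycle inhibitor CDKN1A (0.49, FDR 0.0118 by edgeR). The male minus female response was 0.74 for TIPARP and 1.60 for PDK4 on the log2 scale, with FDR values of 0.00135 and 0.000426 by edgeR. Both genes were picked for a call in an F1 table, so these values are not separate support. Of all genes, 31.7% passed that interaction. FKBP5, itself a classical target, passed in neither table.

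**Figure D4:**
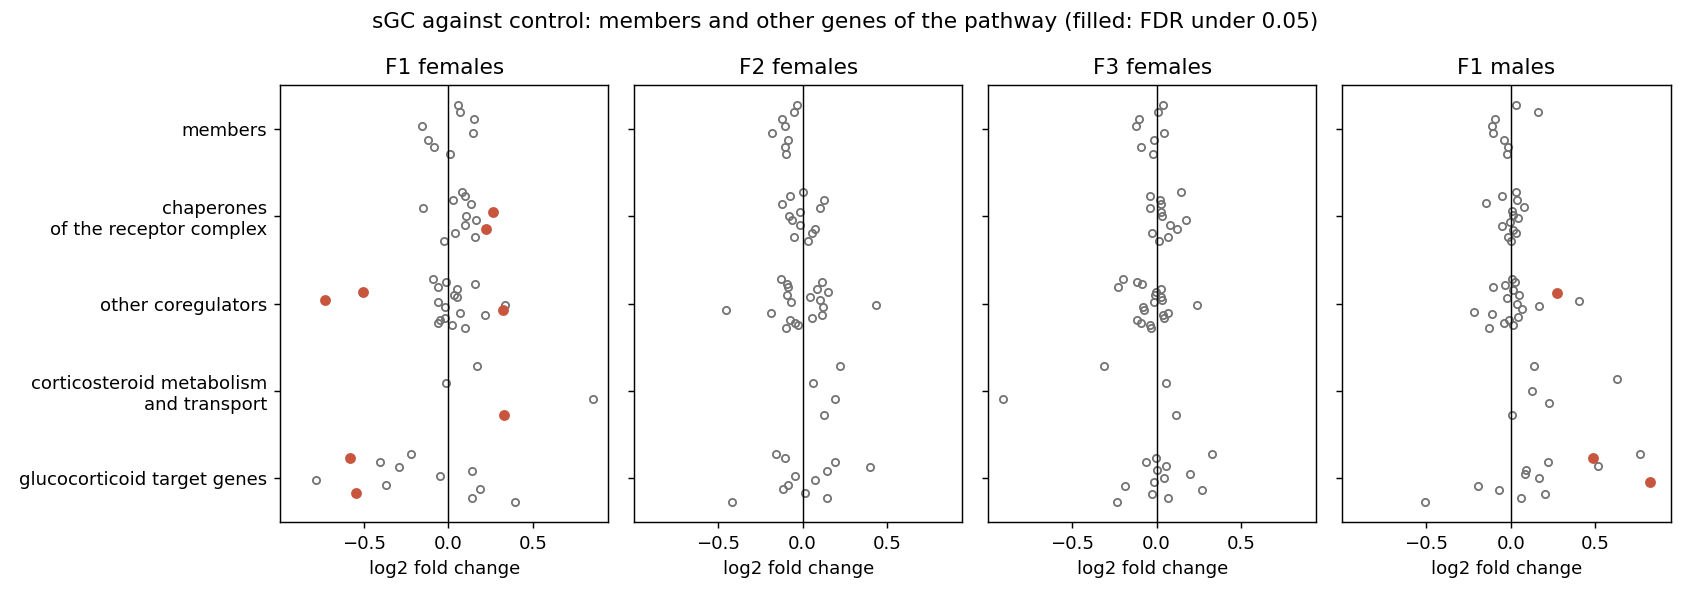
Log2 fold change of sGC against control (horizontal axes) for the 8 members and the genes of 4 other lists of the receptor pathway (rows) in the 4 tables (panels). Each point is a gene and filled red points have an FDR under 0.05; they occur in F1 females and F1 males, and none is a member.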

How the data were processed

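The authors sequenced RNA of mPFC punches and deposited, for each of the 4 tables, raw read counts per gene symbol and animal. The submitters' processing notes name TopHat2 and edgeR; the read counter and genome build are not given in the sources used here, and reads shared with paralogs or overlapping genes may have been split. The authors' log2 fold change, log CPM, likelihood ratio, p-value, FDR and dispersion columns were not used.

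The tools were edgeR 4.0.16 and DESeq2 1.42.0, with limma 3.58.1 loaded, in R 4.3.3. Low genes were removed by filterByExpr (minimum count 10, minimum total 15) and normalized by TMM. sGC and control were compared within each table by the quasi-likelihood test, in place of the likelihood ratio test of the study, with Benjamini-Hochberg adjustment over all genes and a threshold of 0.05. Interactions were fitted over the genes of both tables. Ratios had a pseudocount of 0.5 and used exact permutation tests over animals. The within-table fits were tested on simulated data with changes larger than any fitted for a member. That test does not cover changes as small as theirs.

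The lowest chi-square per degree of freedom among 61 same-group library pairs was 2.84, so no library was taken as a repeat of another. The members and lists were chosen with earlier results of these data known. All members were named, of the other lists at most the 3 called genes of lowest FDR per table, and the 3 genes most correlated with NR3C1, NR3C2 and FKBP5. The labels do not tie animals to litters across groups. The paper states a limit of a single animal per sex and litter for the female offspring but not for the males. Whether some males were littermates is therefore not known, and the tests treat all animals as independent. Their p-values set a difference against the spread between these animals.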

Additional observations from a re-analysis of the deposited data

Results flagged for a closer look

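There were 80 checks for a value far from the others, each on 1 quantity in 1 group of animals. Of these, 2 were marked, while chance marks about 1 in 20. The checks reuse the same animals. NR3C2 in F1 control males had a lowest value of 33.3 CPM in replicate 1, with the other 4 at 35.9 to 36.9 CPM. NCOR1 in F1 control males had a highest value of 317 CPM in replicate 3, with the other 4 at 280.2 to 290 CPM. Without that animal the NCOR1 difference in males was -0.07 on the log2 scale.

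The response of NCOR1 to sGC differed between F1 females and F1 males by -0.25 on the log2 scale and between F1 and F2 females by -0.33. Both were tested as interactions in edgeR and rest on the same 8 F1 females.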

How the results depend on the processing

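The number of members called moved with few settings. With total-count scaling, which shifts the median of all genes by -0.11 in F1 females, 1 member was called in F1 females (NR3C1, -0.20, FDR 0.0454 by edgeR) and 0 in the interactions of F1 females with F1 males and F2 females. That scaling moved the share of higher calls among all genes in F1 females from 55.7% to 26.2%, upper-quartile scaling to 42.5%; with total counts it went from 79.7% to 68.8% in F3 females, and in the interactions of F1 females from 50.7% to 69.8% (F1 males), 49.1% to 68.4% (F2 females) and 54.5% to 71.4% (F3 females, 72.2% with upper quartiles). With 1 fit of all animals, 1 was called in F1 females (NCOR1, 0.15, FDR 0.0460), against 3327 of all genes. With DESeq2, 1 was called in F1 males (NCOR1, -0.11, FDR 0.0371), against 1590 of all genes. Leaving out 1 animal gave 0 to 1 members in F1 females, 1 to 2 in the interaction of the F1 sexes, 0 to 2 in that of F1 and F2 females and 0 to 1 in that of F1 and F3 females. The replicate numbers did not pair the animals: same-number deviations correlated at -0.33 to 0.36, above 0.1 in 4 of 17. With the replicate block, 0 members passed in the F1 and F2 female interaction (NCOR1 -0.34, FDR 0.0921), and NR3C2 in F1 males was 0.013.

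Signs turned with total-count scaling for FKBP5 (-0.012), FKBP4 (-0.028) and PTGES3 (-0.072) in F1 females, NCOR1 (-0.0086), FKBP4 (-0.017) and FKBP5 (-0.049) in F3 females, and the NCOA1 interaction of F2 and F3 females (-0.023). They turned with upper-quartile scaling for PTGES3 in F1 females (-0.025), FKBP5 in F3 females (-0.017) and that NCOA1 interaction (-9.97e-05), and for the FKBP5 to FKBP4 ratio in F1 females with arithmetic means (0.00893). Without 1 animal the fold changes ranged from -0.053 to 0.18 for FKBP5 and -0.058 to 0.068 for PTGES3, F1 females, and from -0.16 to 0.010 for NR3C1, -0.097 to 0.0055 for FKBP5 and -0.095 to 0.0048 for FKBP4, F2 females. They ranged from -0.060 to 0.022 for PTGES3, -0.051 to 0.045 for NR3C1 and -0.098 to 0.12 for FKBP5, F3 females, and from -0.040 to 0.013 for NR3C2 and -0.055 to 0.019 for PTGES3, F1 males. The NCOA1 interaction of F2 and F3 females ranged from -0.031 to 0.057. The male NR3C2 to NR3C1 ratio ranged from 0.0014 to 0.068, with p = 0.0476 by the exact permutation test at 0.068, without sGC replicate 6.

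Counts over all genes moved more: 1864 in F1 females became 1080 with the block and 3327 with 1 fit; 31 in F2 females became 534 with the likelihood ratio test, 473 with DESeq2, 70 with upper-quartile and 96 with total-count scaling, 76 without the filter, 53 with the block and 10 with 1 fit; 153 in F3 females became 616, 632 (DESeq2), 67 (block) and 396 (1 fit). Interaction counts moved from 1536 to 2389 for F1 and F2 females (1 fit), from 11 to between 0 and 221 for F1 and F3 females and from 2 to between 4 and 126 for F2 and F3 females. Leaving out 1 animal gave 613 to 2115 genes in F1 females, 0 to 487 in F2 females, 20 to 598 in F3 females and 667 to 1613 in F1 males. The cause was not tested. Depth limits FKBP5 most, with 137 reads in its lowest library.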
